A study of Mus musculus with 6 samples.

Results

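Smarcd1 and 9 other genes for subunits of the BAF chromatin remodelling complex were followed in mouse hippocampus with and without inhibitor-1. They are Smarcd1, Smarcd2, Smarcd3, Smarca2, Smarca4, Smarcb1, Smarcc1, Smarcc2, Smarce1 and Arid1a. Every probe set, the group of short probes that reports 1 transcript, was taken that the platform annotation assigns to exactly 1 of these symbols, which gave 23 of the 45101 probe sets on the array. Smarcd1 was picked on its measured value, which was lower in knockout, so its values in this contrast are a description and carry no test, and it is the other 9 genes that were tested.

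Total RNA of the hippocampus was hybridised to a one-colour Affymetrix mouse array, 1 per sample, 3 from inhibitor-1 knock-out mice and 3 from wild-type mice. Inhibitor-1, the product of Ppp1r1a, restrains protein phosphatase 1 once protein kinase A has phosphorylated it. The labels state neither strain, sex and age nor the targeting construct, and they do not say whether each array stands for a separate animal, so the p-values rest on a spread between arrays that could be technical. Both groups share the tissue, and no treatment is recorded for either.

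The BAF complex, the mammalian SWI/SNF remodeller, uses ATP to slide or evict nucleosomes and so opens or closes promoters and enhancers. Each complex holds a motor ATPase, Smarca4 (BRG1) or Smarca2 (BRM), a core of Smarcb1, Smarcc1, Smarcc2 and Smarce1, a BAF60 subunit that bridges to transcription factors and is encoded by Smarcd1, Smarcd2 or Smarcd3, and a large DNA-binding subunit such as Arid1a. In brain the subunits are exchanged as neural progenitors become neurons, and the neuronal form of the complex takes part in dendrite growth and activity-dependent transcription.

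The 3 Smarcd paralogs encode alternative forms of the same BAF60 subunit, and their promoters are shown because Smarcd1 was the low member among them. The 250 bases before the RefSeq start of each gene are given 5′ to 3′ from assembly GRCm38.p6, at chr15:99702037-99702286 on the plus strand for Smarcd1, chr11:106267633-106267882 on the minus strand for Smarcd2 and chr5:24602003-24602252 on the minus strand for Smarcd3. Capitals mark any match, on either strand, to TGACG, the half-site bound by CREB, a transcription factor that protein kinase A activates and protein phosphatase 1 dephosphorylates, or to TATAAA, the TATA box.
Smarcd1 promoter: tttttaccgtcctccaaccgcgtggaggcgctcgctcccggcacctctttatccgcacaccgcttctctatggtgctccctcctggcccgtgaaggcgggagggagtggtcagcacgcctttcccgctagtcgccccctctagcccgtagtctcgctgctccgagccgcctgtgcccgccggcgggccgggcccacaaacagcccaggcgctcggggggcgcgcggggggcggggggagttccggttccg
Smarcd2 promoter: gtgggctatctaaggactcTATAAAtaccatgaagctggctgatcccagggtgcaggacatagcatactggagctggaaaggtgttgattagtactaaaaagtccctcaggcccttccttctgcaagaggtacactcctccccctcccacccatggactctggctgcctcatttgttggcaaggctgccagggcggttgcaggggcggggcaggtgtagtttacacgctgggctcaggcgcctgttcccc
Smarcd3 promoter: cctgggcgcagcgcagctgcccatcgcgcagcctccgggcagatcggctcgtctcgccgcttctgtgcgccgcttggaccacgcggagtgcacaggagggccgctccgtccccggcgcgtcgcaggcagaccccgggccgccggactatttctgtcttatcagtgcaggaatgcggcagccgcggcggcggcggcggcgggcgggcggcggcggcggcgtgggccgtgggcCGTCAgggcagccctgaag

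The Smarcd1 window held 71.2% G and C with 29 CpG dinucleotides and no match to either motif. The Smarcd2 window held 56.4% G and C with 4 CpG dinucleotides and a TATAAA that began 231 bases before the start. The Smarcd3 window held 76.0% G and C with 38 CpG dinucleotides and a TGACG match, written here as its reverse complement, that began 19 bases before the start. Of all 32851 RefSeq promoter windows of this length, 17.8% held TGACG, 12.4% held TATAAA and 1.55% held the full cAMP response element TGACGTCA, which contains the half-site, and the median window held 52.4% G and C and 6 CpG dinucleotides. RefSeq windows were found for 9 of the 10 genes, all but Smarce1, and none of their 10 windows held the full element. A match is a description of these letters only.

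Smarcd1 encodes BAF60a, and it is read by probe sets 1448913_at and 1420240_at. The intensity of 1448913_at, on the deposited linear scale, was 2582, 2406 and 2338 in the 3 knockout arrays, against 4390, 3705 and 4794 in the 3 wild-type arrays. The groups did not overlap: the highest knockout array lay 1123 intensity units under the lowest wild-type array, a gap wider than the range of 243 among knockout arrays and about as wide as the range of 1089 among wild-type arrays. Among all tested probe sets, 4.91% had every knockout array below every wild-type array, from which nothing is read for Smarcd1, since this contrast picked it. The mean was 2442 ± 126 in knockout and 4296 ± 551 in wild type (SD, n = 3 each), so knockout stood at 56.8% of wild type. On the log2(intensity + 16) scale used for all changes here, the change of Smarcd1 was -0.80 (SE 0.13), knockout minus wild type. In a bulk sample, fewer cells that express a gene and less RNA per cell cannot be told apart.

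The other Smarcd1 probe set, 1420240_at, read 368, 17.1 and 138 in knockout arrays, against 52.2, 103 and 72.5 in wild-type arrays. Its values had no order by group, the highest and the lowest of the 6 both being knockout arrays. Its mean lay among the 40% of lowest probe set means, at or below a log2 level of 8.44, so it was left out of the fit. The lower Smarcd1 level therefore rests on a single probe set. Of 26999 probe sets that passed this filter, 162 had a change further below 0 than that of Smarcd1, and of the 10056 at least as bright as it, 2 did, namely those of Slc38a1 and Pou6f1. A low place in both orders follows from the choice of Smarcd1 for its lower value in this contrast, so nothing is read from it.

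The filter kept 19 of the 23 member probe sets, with at least 1 for each of the 10 genes. The 4 left out, of Smarcd1, Smarcb1, Smarcc1 and Smarce1, reached an intensity of at most 368 on any array. Tested with limma across all 26999 probe sets, 0 of the 18 tested probe sets of the other 9 genes passed a Benjamini-Hochberg adjusted p under 0.05 (lowest adjusted p 0.988), where the share of all probe sets called was 0.0111%. At an unadjusted p under 0.05 there was 1 of the 18, where the share over all probe sets was 4.38%. The 3 probe sets that were called in the comparison were those of Ppp1r1a, the targeted gene (289.4 ± 51.5 in knockout and 9259 ± 1002 in wild type, SD, n = 3 each), Slc38a1 and Pou6f1, all lower in knockout.

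**Figure D1:**
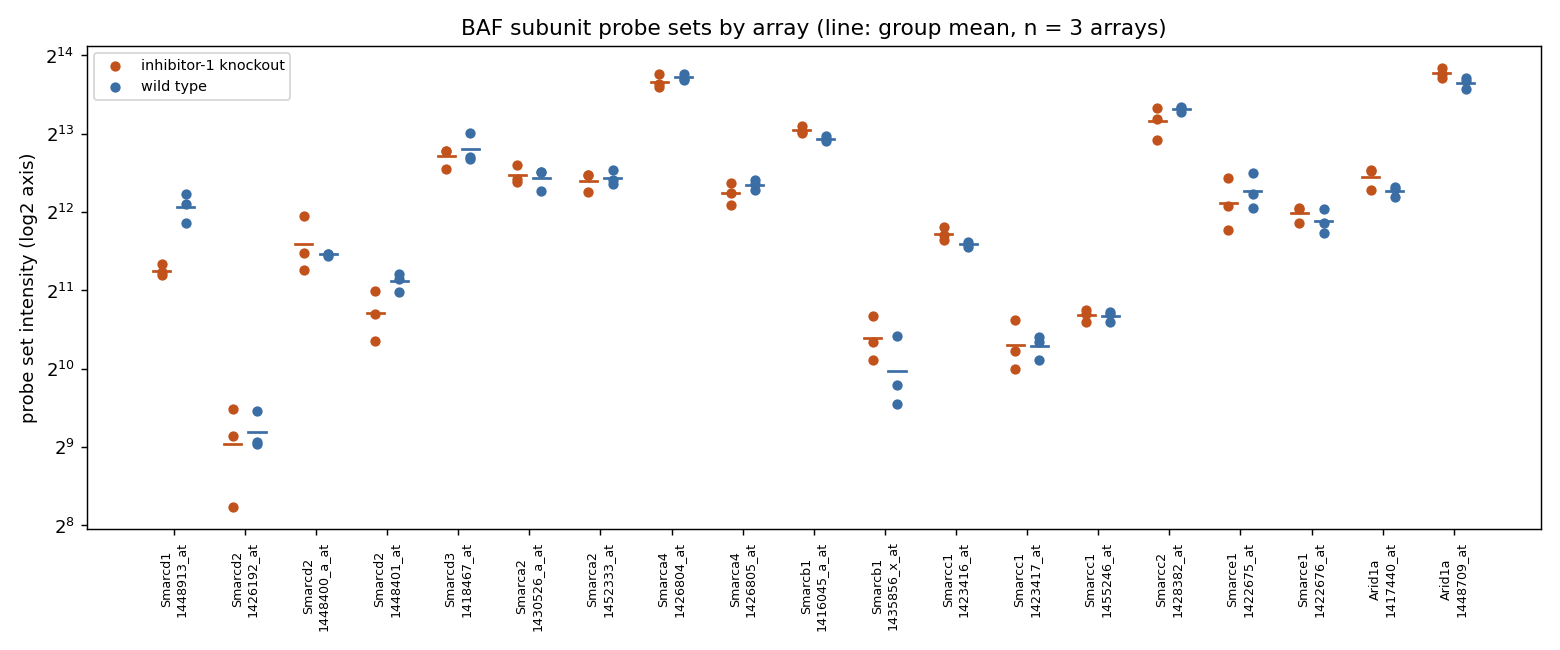
Probe set intensity on a log2 axis for the 19 BAF member probe sets that passed the filter. Knockout arrays are on the left of each pair and wild-type arrays on the right, with a line at each group mean (n = 3 arrays). Smarcd1 1448913_at shows knockout arrays between 2338 and 2582, all below the wild-type arrays, which lie between 3705 and 4794; most other pairs overlap.

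The paralogs of Smarcd1 gave no common pattern. Smarcd2 encodes BAF60b, which is known for its part in granulocyte development. Its brightest probe set, 1448400_a_at, read 2865, 3947 and 2456 in knockout arrays and 2836, 2835 and 2787 in wild-type arrays. Knockout arrays lay on both sides of the wild-type ones, and the log2 change was 0.10 (95% interval -0.26 to 0.47). A second Smarcd2 probe set, 1448401_at, read 1313, 2039 and 1664 in knockout arrays and 2375, 2271 and 2017 in wild-type arrays, with an overlap between knockout replicate 2 and wild type replicate 3. Its log2 change was -0.43 (95% interval -0.83 to -0.02), the 1 member probe set of the 18 at an unadjusted p under 0.05 (limma adjusted p = 0.988). The third, 1426192_at, was dim, with a log2 change of -0.22 (95% interval -1.02 to 0.57). The 3 Smarcd2 probe sets thus did not share a sign.

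Smarcd3 encodes BAF60c, known from heart and muscle development and found in neuronal BAF complexes. Its only probe set, 1418467_at, read 7039, 6018 and 7066 in knockout arrays and 8238, 6526 and 6691 in wild-type arrays. The groups overlapped, and the log2 change was -0.09 (95% interval -0.34 to 0.16, limma adjusted p = 0.991). The interval does not reach the size seen for Smarcd1, but the difference between Smarcd1 and Smarcd3 was not tested, since Smarcd1 was picked for its change.

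**Figure D2:**
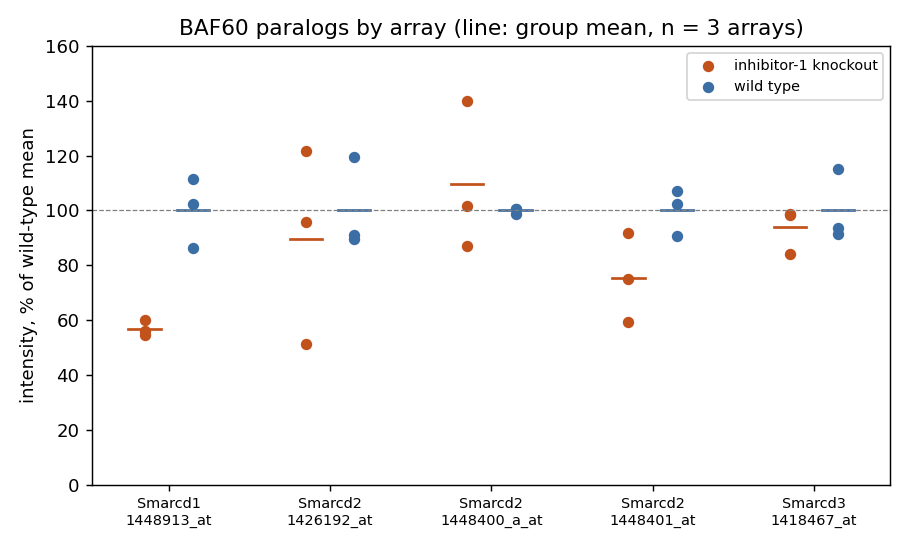
Intensity as a percentage of the wild-type mean for the 5 probe sets of Smarcd1, Smarcd2 and Smarcd3 that passed the filter. Knockout arrays are on the left of each pair and wild-type arrays on the right, with a line at each group mean (n = 3 arrays). Knockout arrays of Smarcd1 lie at 54.4% to 60.1%, while those of Smarcd2 1448400_a_at lie at 87.1% to 140.0% and those of Smarcd3 at 84.1% to 98.8%.

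No difference was detected for the motor ATPases. Smarca4, the ATPase that neural stem cells need, read 12375, 13932 and 12676 in knockout arrays and 13355, 13913 and 13224 in wild-type arrays at 1426804_at, which overlap. Its log2 change there was -0.06 (95% interval -0.22 to 0.11), and -0.11 (95% interval -0.34 to 0.11) at 1426805_at. Smarca2, the alternative ATPase, read 5473, 5348 and 6218 in knockout arrays and 5821, 5818 and 4956 in wild-type arrays at 1430526_a_at. Its log2 changes were 0.04 (95% interval -0.20 to 0.27) at that probe set and -0.04 (95% interval -0.26 to 0.19) at 1452333_at. For all 4 ATPase probe sets the interval stayed within -0.5 to 0.5.

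Among core subunits, Smarcb1, the SNF5 homologue that contacts the nucleosome, read 8751, 8254 and 8359 in knockout arrays and 8053, 7688 and 7808 in wild-type arrays at 1416045_a_at. Every knockout array lay above every wild-type array, though the log2 change was only 0.11 (95% interval -0.07 to 0.28) and did not pass. A probe set of Smarcb1 of a type whose probes may also bind other transcripts, 1435856_x_at, had the highest change of the 18, at 0.45 (95% interval -0.12 to 1.01), with overlapping groups. Smarcc1, the BAF155 scaffold, read 3604, 3332 and 3191 in knockout arrays and 3002, 3150 and 3093 in wild-type arrays at 1423416_at. These groups did not overlap either, with a log2 change of 0.13 (95% interval -0.12 to 0.38), while its other 2 tested probe sets had changes of -0.01 and 0.01.

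Smarcc2, the BAF170 scaffold, read 10326, 9324 and 7788 in knockout arrays and 10400, 9936 and 10295 in wild-type arrays. Knockout replicate 3 was the lowest of the 6, and knockout arrays spread more widely, with a coefficient of variation of 14.0% in knockout and 2.38% in wild type. The log2 change was -0.17 (95% interval -0.39 to 0.06). Smarce1, the HMG-box subunit BAF57, had log2 changes of opposite sign at its 2 tested probe sets, -0.17 (95% interval -0.54 to 0.20) at 1422675_at and 0.11 (95% interval -0.15 to 0.37) at 1422676_at.

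Arid1a, the large subunit BAF250a that defines canonical BAF and is often mutated in cancers, read 14680, 13876 and 13416 in knockout arrays and 13398, 13026 and 12163 in wild-type arrays at 1448709_at. The groups were apart by 17.8 intensity units only, between knockout replicate 3 and wild type replicate 1, and the log2 change was 0.12 (95% interval -0.05 to 0.29). At 1417440_at the log2 change was 0.18 (95% interval -0.05 to 0.41), with overlapping groups.

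Across the 18 tested probe sets of the 9 genes, 9 had a change above 0 and 9 below, from -0.43 to 0.45, and the median was 0.00211 against 0.00398 over all tested probe sets. By the brightest probe set of each gene, 5 of the 9 had a change above 0 and 4 below, with a median log2 change of 0.04 against 0.000326 over all 12493 genes. Groups did not overlap for 3 of the 18, all 3 higher in knockout and of Smarcb1, Smarcc1 and Arid1a, a share of 16.7%, where 9.89% of all tested probe sets had groups that did not overlap and 4.97% were higher without overlap. The 95% interval stayed within -1 to 1 for 16 of the 18 and within -0.5 to 0.5 for 14. It reached the log2 change of Smarcd1 for 2, both of Smarcd2. Nothing is read from that count, since this contrast picked Smarcd1 and its own spread is left aside there. The median SE of the log2 change was 0.113 for these 18 and 0.177 over all tested probe sets. The coefficient of variation within a group had a median of 9.13% in knockout and 5.54% in wild type. No array stood out for the whole set, each being the highest of the 6 for 1 to 4 of the 18 probe sets and the lowest for 2 to 4.

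The 20 other genes of the BAF, PBAF and non-canonical BAF complexes were all measured, and by their brightest probe sets 0 passed in limma (lowest adjusted p 0.988), where 0.016% of all genes were called. At an unadjusted p under 0.05 there were 2, both with a change above 0, a share to be set beside 4.75% of all genes. Their changes were above 0 for 10 and below 0 for 10 genes, with a median of -0.03. Of their 54 probe sets 45 were tested, with 0 called, and groups did not overlap for 8.89% of these.

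Subunits that neurons use in place of progenitor forms were Actl6b (log2 change -0.15), the neuronal actin-like subunit BAF53b, Dpf1 (-0.15) and Dpf3 (0.11), the BAF45 subunits that read histone tails, and Ss18l1 (-0.17), known as CREST. Actl6b read 7833, 7591 and 7334 in knockout arrays and 8468, 7844 and 8901 in wild-type arrays. Knockout arrays were lower without overlap, and the interval of -0.33 to 0.04 holds 0. The progenitor counterparts Actl6a (-0.13), Phf10 (0.09) and Ss18 (0.01) did not pass either. Dpf2, found in many tissues, had a change of 0.12.

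The genes at an unadjusted p under 0.05 were Arid2 and Pbrm1, subunits of PBAF, the form of the complex with several bromodomains. Arid2 at 1426525_at read 8011, 7847 and 8729 in knockout arrays and 6763, 6142 and 6856 in wild-type arrays. All 3 knockout values were the higher ones, with a log2 change of 0.31 (95% interval 0.12 to 0.51, limma adjusted p = 0.988), and its 4 tested probe sets all had changes above 0, from 0.10 to 0.31. Pbrm1 at 1427266_at read 5867, 6252 and 6212 in knockout arrays and 4400, 5648 and 4936 in wild-type arrays. The groups again did not overlap, with a log2 change of 0.30 (95% interval 0.06 to 0.54, limma adjusted p = 0.988), while its other 2 tested probe sets had -0.01 and 0.27. Brd7 (-0.13), a further bromodomain subunit of PBAF, did not share the sign. Arid2 lies on chromosome 15 with Smarcd1, 41 measured genes from it and 2 from Slc38a1.

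Of the remaining subunits, Arid1b (0.07) is the alternative to Arid1a, Brd9 (-0.11), Bicra (0.39) and Bicral (0.01) belong to non-canonical BAF, Bcl7a (0.11), Bcl7b (-0.09) and Bcl7c (-0.21) are accessory subunits, and Bcl11a (-0.06) and Bcl11b (-0.18) are zinc finger proteins of neurons and lymphocytes. Bicra had the highest log2 change of the 20 genes and a 95% interval of -0.20 to 0.98. All 4 tested probe sets of Bcl11b had changes below 0, from -0.18 to -0.06. For comparison, of 23 tested genes of other ATP-dependent remodellers 0 passed in limma, beside 0.016% of all genes. At an unadjusted p under 0.05 there was 1 of the 23, beside 4.75% of all genes. This was Chd3, a NuRD ATPase, at a log2 change of -0.25 (limma adjusted p = 0.988), followed by Smarcal1, an annealing helicase, at -0.17. The median log2 change of the 23 was 0.04.

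**Figure D3:**
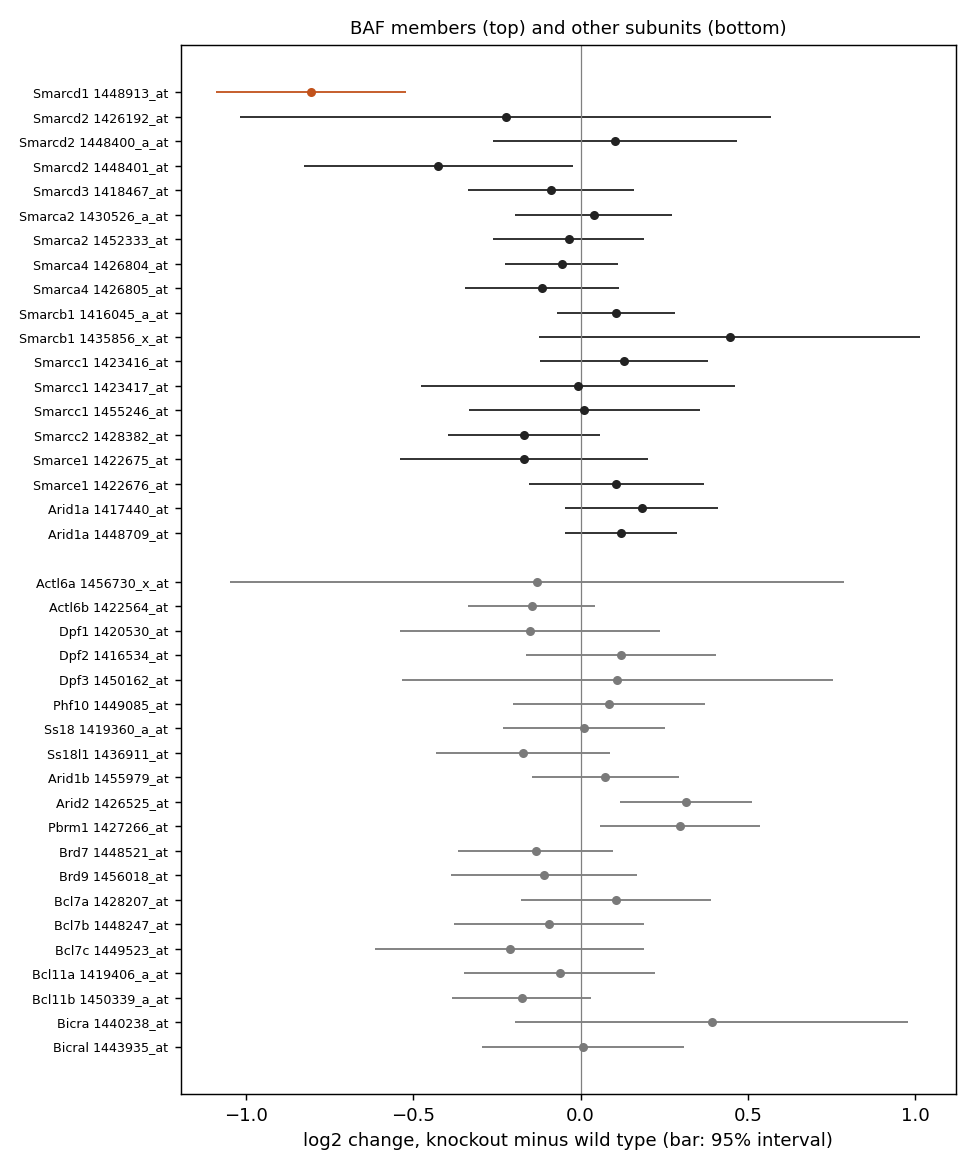
Log2 change, knockout minus wild type, with its 95% interval for the 19 BAF member probe sets that passed the filter (top, Smarcd1 in orange). The brightest probe set of each of the 20 other subunit genes is below them (grey). The interval of Smarcd1 is a description and no test, since this contrast picked the gene. Smarcd1 lies at -0.80, and the other 18 member probe sets lie between -0.43 and 0.45.

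Smarcd1 lies on chromosome 15, as do Ppp1r1a, Slc38a1 and Pou6f1, while the other 9 members lie on chromosomes 4, 5, 9, 10, 11 and 19. In the gene order of RefSeq assembly GRCm38.p6, Ppp1r1a lies 62 measured genes after Smarcd1, Pou6f1 12 after it and Slc38a1 39 before it. The 5 measured genes on each side of Smarcd1 were Tmbim6 (log2 change -0.01), Nckap5l (0.18), Faim2 (-0.20), Racgap1 (0.75) and Asic1 (-0.11) before it and Gpd1 (0.13), Cers5 (0.05), Lima1 (0.38), Larp4 (0.13) and Dip2b (-0.004) after it. Of these 10, 0 passed in limma, beside 0.016% of all genes, and 1 had an unadjusted p under 0.05 (Faim2, an inhibitor of Fas-mediated cell death in neurons), beside 4.75% of all genes. Their changes were below 0 for 4 and above 0 for 6, with a median of 0.09. Racgap1, a regulator of cell division, had the highest change with a 95% interval of -0.21 to 1.72. Asic1, an acid-sensing channel and the nearest gene before Smarcd1, read 1670, 1851 and 1671 in knockout arrays and 2036, 1844 and 1728 in wild-type arrays, which overlap.

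**Figure D4:**
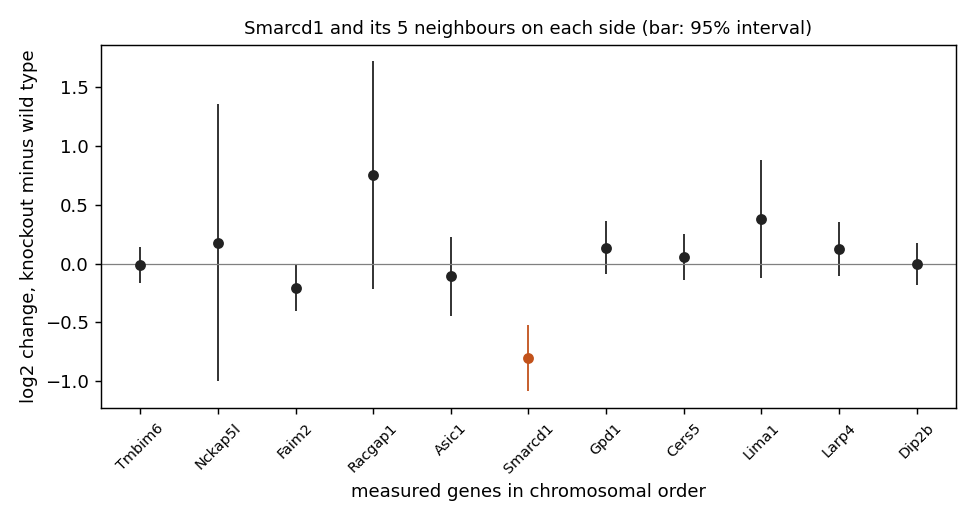
Log2 change, knockout minus wild type, with its 95% interval for Smarcd1 (orange) and the 5 measured genes on each side of it in the order of chromosome 15. Smarcd1 lies at -0.80, and its neighbours lie between -0.20 and 0.75. The interval drawn for Smarcd1 is a description and no test, since this contrast picked the gene.

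Over the 6 arrays, the genes whose log2 values correlated most closely with Smarcd1 1448913_at were Nek7, a kinase of the NIMA family (Pearson r = 0.995), Atp6v1g2, a subunit of the vesicular proton pump (r = 0.995), Acbd6 (r = 0.994), Retreg2 (r = 0.992) and Nr2e1, a nuclear receptor of neural stem cells (r = 0.985). These correlations describe 6 points that share the genotype difference, and 36 of 12492 genes had an r above 0.95, Ppp1r1a being the 23rd in the order with 0.964. The 5 genes lie on chromosomes 1, 17, 1, 1 and 10, and their own log2 changes were -0.28 for Nek7, -0.08 for Atp6v1g2, -0.17 for Acbd6, -0.33 for Retreg2 and -0.44 for Nr2e1. The 18 other member probe sets had an r with Smarcd1 between -0.75 (Smarcb1 1416045_a_at) and 0.65 (Smarcc2), with a median of -0.05.

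The arrays were close in scale. Their median intensities were 542 to 666 in knockout and 574 to 642 in wild type, and the 3′ over 5′ ratio of beta-actin, a sign of RNA integrity, was 1.18 to 1.21 in knockout and 1.24 to 1.30 in wild type, without overlap, while that of Gapdh was 0.821 to 0.829 in knockout and 0.809 to 0.880 in wild type, with overlap. All 16 hippocampal neuron markers, Prox1 and Wfs1 among them, were above the filter. Their mean log2 level was 12.72 to 12.76 in knockout and 12.74 to 12.83 in wild type, with overlap. Their summed intensity was 259724 to 274487 in knockout and 274581 to 293564 in wild type, lower in knockout by a narrow gap. In such a sum the brightest markers, here Camk2a, Rbfox3 and Map2, weigh most. Of the 16, 9 had a change below 0 (median log2 change -0.08), 0 passed in limma and 2, Camk2a and Neurod6, had an unadjusted p under 0.05. Over all genes 0.016% were called and 4.75% had an unadjusted p under 0.05, shares to be set beside the count of every marker list here. Of 9 oligodendrocyte markers 7 had a change below 0 (median log2 change -0.13), 0 passed in limma and 2, Mobp and Mag, had an unadjusted p under 0.05. Their mean log2 level was 14.16 to 14.30 in knockout and 14.29 to 14.38 in wild type, with overlap. Their summed intensity, at 339747 to 355992 in knockout and 365171 to 395013 in wild type, was lower in knockout without overlap. Changes were above 0 for 5 of 8 astrocyte markers (median 0.05), with 0 of the 8 at an unadjusted p under 0.05 in limma. Their summed intensity was 305287 to 311758 in knockout and 289967 to 304735 in wild type, higher in knockout without overlap. Their mean log2 level, 14.59 to 14.62 in knockout and 14.54 to 14.63 in wild type, did overlap. For the 12 choroid plexus markers the median of the log2 changes was 0.59, and 11 of the 12 lay above 0. None of these reached an adjusted p under 0.05 in limma. An unadjusted p under 0.05 was seen for 3, Kcnj13, Cldn2 and Slc4a5, each higher in knockout. The mean log2 level of this list was 11.84 to 12.71 in knockout and 11.04 to 12.22 in wild type. Its summed intensities were 228133 to 281485 in knockout and 202169 to 290064 in wild type, and both measures overlap. Of 12 meningeal and fibroblast markers 11 were above the filter, and all 11 had a change above 0 (median log2 change 0.47). In limma 0 passed, and 5, Ogn, Col1a2, Igf2, Mgp and Fmod, had an unadjusted p under 0.05, all higher in knockout. Their mean log2 level was 11.3 to 11.8 in knockout and 11.1 to 11.3 in wild type. Their summed intensity was 47557 to 67180 in knockout and 40709 to 47907 in wild type, and both measures overlap. No marker was at 0. Of 10 markers of dividing and immature neurons 7 were above the filter, while Mki67, Eomes and Igfbpl1 were too dim to be tested. The summed intensity of the 7 was 29943 to 34912 in knockout and 28368 to 32003 in wild type, and 4 had a change above 0. In limma 0 of the 7 passed, and 1, Sox4, had an unadjusted p under 0.05, higher in knockout. With the mean choroid plexus level as a covariate, an alternative chosen after seeing the data, the log2 change of Smarcd1 was -0.76. That value is a description, since this contrast picked Smarcd1. The part of choroid plexus content in the values above was not tested. Nor was that of the beta-actin ratio or of the neuron, oligodendrocyte, astrocyte and meningeal markers.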

How the data were processed

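Hippocampal RNA was measured on 6 arrays, 3 inhibitor-1 knockout and 3 wild type, grouped by the sample titles. The authors deposited linear intensity values, 1 per probe set and array, and the sources used here do not name the software. With 2% of values trimmed at each end, every array had a mean of 2500, which shows a common scaling before deposit. Of 45101 probe sets, 34958 had 1 gene symbol in the platform annotation, 932 several and 9211 none; 34754 were found by gene ID in RefSeq (GRCm38.p6).

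Values were taken as log2(intensity + 16), so dim probe sets show smaller changes than they had. Neither the 64 control probe sets nor the dimmest 40%, by their mean over all arrays, were tested. A two-sided limma 3.58.1 fit in R 4.3.3, with group alone in the model and a variance prior that follows intensity, covered 26999 probe sets, with Benjamini-Hochberg adjustment over all of them; the fit was tested on simulated data. Where 1 value per gene is given, it is the probe set of highest mean. The members, lists and tests were chosen with earlier results of these data known. Named were all members, all listed other subunits, the 2 other remodellers of smallest p, 5 neighbours on each side and the 5 genes most alike to Smarcd1. Alternatives changed the pseudocount, the filter, the scaling, the variance model or the weight of arrays, added a replicate block, left out arrays, or used the average over all probe sets of a gene or a choroid plexus covariate. No detection calls were used, and the number of arrays limits the precision.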

Additional observations from a re-analysis of the deposited data

How the results depend on the processing

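In all 17 alternative fits, 0 probe sets of the 9 tested BAF members, 0 of the 20 other subunit genes and 0 of the other remodellers passed in limma at an adjusted p under 0.05; the lowest adjusted p of the 9 tested members was 0.376. The log2 change of Smarcd1 ran from -0.91 without wild type replicate 2 to -0.72 without wild type replicate 3; its sign was fixed by the choice of the gene, whose groups do not overlap, and is no sign of stability. The median log2 change of the 10 members, Smarcd1 among them, ran from -0.06 to 0.05. In the fit used above this median was -0.009, and that of the 9 other members was 0.04. For single genes and probe sets, 947 comparisons all kept their side of the threshold, and 56 of them changed sign without passing in either fit. The filter on the 60% lowest means kept 18 member probe sets, and without a filter all 23 were fitted.

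The number of probe sets called over the whole array was less stable than these: 3 as reported, 1 without an intensity trend, and 3 to 5 leaving out 1 array, with 5 (2 of them higher) without knockout replicate 1. With alternatives chosen after seeing the data it was 14 without replicate 1 of both groups, the array of lowest median intensity in either group, and 5 with the choroid plexus covariate. No label pairs the samples, and deviations of same-numbered arrays correlated at 0.24, 0.05 and 0.10. Those of differently numbered arrays correlated at -0.16 to 0.11, so for replicates 2 and 3 the same number did not stand out. With the replicate block 11 were called, 7 of them higher, none of the 9 tested BAF members, and the change of Smarcd1 was -0.80. The cause of these shifts was not tested.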
